A study of Mus musculus with 20 samples.

Results

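The genes described here are 40 genes of T cell receptor signalling and T cell fate, measured in nuclei sorted from mouse spinal cord. They were chosen by symbol from a list of the receptor complex, its coreceptors and signalling proteins, costimulatory receptors, cytokine receptors, lineage transcription factors and effector molecules. Each of the 40 symbols matched exactly 1 of the 43629 rows of the counts table. A T cell recognises antigen through its receptor, whose signal is carried into the cell by the CD3 chains and the zeta chain (Cd247). The coreceptors CD4 and CD8 bring the kinase LCK to the complex, ZAP-70 is then recruited, and LAT gathers the downstream enzymes. Costimulatory receptors and cytokine receptors shape the response, and transcription factors such as T-bet, GATA3 and FOXP3 set which kind of effector or regulatory T cell forms. In experimental autoimmune encephalomyelitis (EAE), a mouse model of multiple sclerosis, T cells primed against myelin antigen enter the spinal cord.

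The study compared healthy mice with mice in acute EAE, 15 days after active immunization, and sorted spinal cord nuclei by flow cytometry on NeuN, the nuclear protein of mature neurons encoded by Rbfox3. The 4 groups are healthy NeuN-negative, EAE NeuN-negative, healthy NeuN-positive and EAE NeuN-positive nuclei, with 5 libraries each, numbered 1 to 5 in the sample titles. The labels give no strain, sex, age, immunizing antigen or genotype. They also do not say whether the 5 libraries of a group came from 5 separate mice, so the p-values measure the spread between these libraries. Polyadenylated RNA of whole nuclear pools was sequenced, and in such bulk samples more nuclei of a cell type and more RNA per nucleus cannot be told apart.

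Total counts ran from 3149209 to 37689267 per library and were lowest in EAE NeuN-negative nuclei (3149209 to 15525441). Rbfox3 was at 263 to 350 CPM (counts scaled to library size) in healthy NeuN-positive and 116 to 264 CPM in EAE NeuN-positive libraries, against 14.3 to 40.4 and 19.2 to 55 CPM in the NeuN-negative ones, so the sort labels match. Mitochondrially encoded genes took 2.18% to 14.6% of counts in EAE NeuN-negative libraries and 0.197% to 9.35% elsewhere. Replicates 2 and 4 of EAE and replicate 3 of healthy, whose NeuN-positive libraries were above 2%, stood apart, and counts of genes are also given without both libraries of these numbers.

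The genes of the CD3 chains lie together on chromosome 9, with Cd3d at chr9:44981786-44987339 and Cd3e at chr9:44998740-45009627 (GRCm38, GENCODE M21). Cd3g and Cd3d start 1355 bases apart and are transcribed away from each other. Their promoter sequences are shown because both genes rose in both sorts in EAE (below 1 CPM on average in healthy nuclei). The sequences are the 250 bases before each RefSeq start in GRCm38.p6, 5′ to 3′ on the strand of the gene, from chr9:44980432-44980681 (minus strand) for Cd3g and chr9:44981536-44981785 (plus strand) for Cd3d.
Cd3g: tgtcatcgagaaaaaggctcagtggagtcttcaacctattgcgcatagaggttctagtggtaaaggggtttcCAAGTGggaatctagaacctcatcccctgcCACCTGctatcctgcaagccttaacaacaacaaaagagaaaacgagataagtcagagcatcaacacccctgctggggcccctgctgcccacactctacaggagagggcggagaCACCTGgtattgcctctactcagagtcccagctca
Cd3d: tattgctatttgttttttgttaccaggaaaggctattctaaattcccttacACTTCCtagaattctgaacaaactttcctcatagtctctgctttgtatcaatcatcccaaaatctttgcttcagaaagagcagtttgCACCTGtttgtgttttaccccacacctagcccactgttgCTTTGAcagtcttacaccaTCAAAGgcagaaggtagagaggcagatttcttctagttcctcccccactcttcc
Capitals mark matches to motifs searched on both strands: ETS (GGAAGT), RUNX (TGTGGT), E-box (CANNTG) and TCF/LEF (CTTTGA). The Cd3g window held 3 E-box matches, at 178, 148 and 35 bases before the start, and none of the other motifs. The Cd3d window held 1 ETS match on the reverse strand, 199 bases before the start, 1 E-box match at 112 bases, and 2 TCF/LEF matches at 73 and 54 bases. A TATAAA on the gene's strand was in neither. The marked matches did not overlap each other. Among all 32851 windows of this length in the table, 19.7% held the ETS letters, 14.0% the RUNX letters, 66.2% an E-box and 13.8% the TCF/LEF letters. In the 40 windows of the 30 genes of this list that the table holds, the shares were 40%, 20%, 82.5% and 10%. A match is a stretch of letters and no evidence of binding.

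In NeuN-negative nuclei, nearly the whole list was higher in EAE. Of the 40 genes, 37 had enough counts to be tested, 35 rose, none fell, and Prkcq and Tcf7 did not pass the test (edgeR's quasi-likelihood test, adjusted p under 0.05 over all genes tested; at an unadjusted p under 0.05 1 gene, Prkcq, was lower, and DESeq2 also called it lower). Across all 17604 genes tested in this comparison, 15.1% rose and 12.6% fell. The median log2 fold change of the 37 genes was 4.69, beside 0.05 for all genes tested. For 32 of the 37, every EAE library lay above every healthy library, and for 1, Prkcq, every EAE library lay below. Over all genes tested, 7.04% were fully above and 11.6% fully below. Most of these genes passed the count filter through the EAE libraries: it asks for about 0.886 CPM in 5 libraries, and 29 of the 37 reached it in every EAE library but not in every healthy one. The 8 that reached it in every healthy library were Zap70, Lat, Sash3, Prkcq, Tcf7, Lef1, Bcl11b and Itgal, and 6 of these 8 rose. Leaving out both libraries of EAE 2, EAE 4 and healthy 3, 38 genes of the list were tested, 35 rose and 1, Prkcq, fell. Of all 18333 genes tested in that setting, 3197 rose and 2258 fell.

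**Figure D1:**
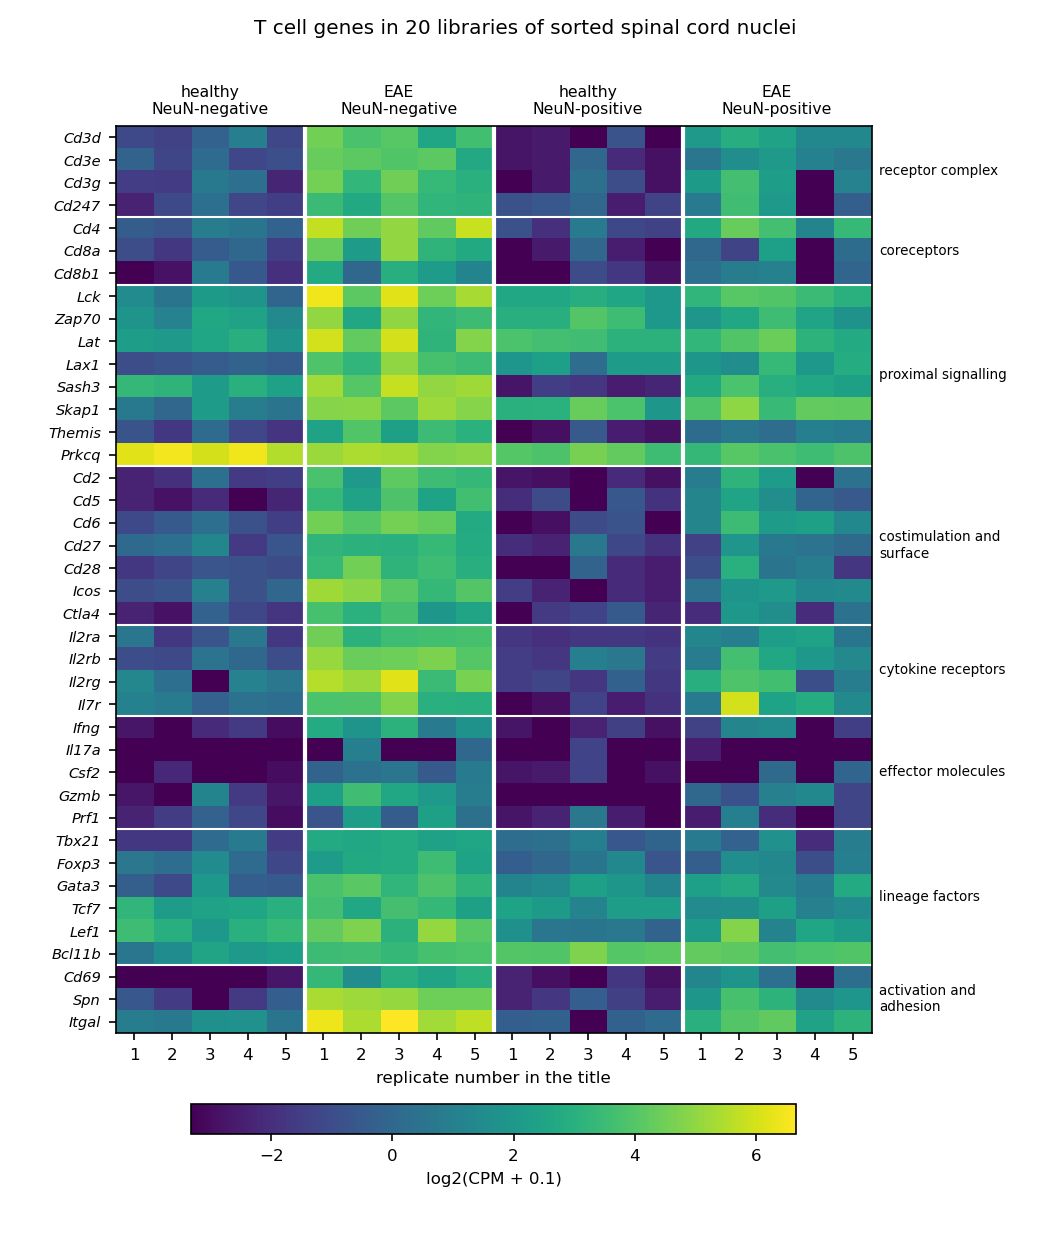
Level of each of the 40 genes (rows, grouped by role) in each of the 20 libraries (columns, in 4 groups of 5), as log2(CPM + 0.1) in colour. The EAE NeuN-negative block is bright in nearly all rows, while Prkcq is brightest in healthy NeuN-negative libraries and Lat, Zap70, Lax1, Skap1 and Bcl11b are visible in healthy NeuN-positive ones.

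All 4 genes of the receptor complex rose in NeuN-negative nuclei. Cd3e, the CD3 epsilon chain, was at 0.813, 0.325, 1.03, 0.341 and 0.438 CPM in healthy libraries 1 to 5 and at 20.3, 17.7, 15.2, 17.8 and 6.44 CPM in EAE libraries 1 to 5. The lowest EAE library, number 5, still lay above the highest healthy one, and the log2 fold change was 5.0 ± 0.54 (SE; adjusted p = 9.91e-06). Cd3d, the delta chain, went from 0.356, 0.284, 0.772, 1.82 and 0.335 CPM to 23.3, 13.9, 16.5, 5.8 and 12.4 CPM, a log2 fold change of 4.64 ± 0.63 (SE; adjusted p = 8.4e-05). Healthy library 4 was the highest of the healthy group for this gene, and without it the log2 fold change was 5.26. Cd247, the zeta chain, went from 0.102, 0.365, 1.16, 0.341 and 0.258 CPM to 11.1, 6.62, 15.6, 9.41 and 8.93 CPM (4.85 ± 0.68 SE on the log2 scale, adjusted p = 0.000106). Cd247 shares 3007 exonic bases with Pou2f1 on the opposite strand, and nothing states whether counting used strand. Cd3g, the gamma chain, went from 0.656 ± 0.644 CPM to 14.8 ± 7.53 CPM (SD, n = 5). Healthy library 3 held the highest Cd247 and Cd3g values of its group, and without it their log2 fold changes were 5.50 and 5.55.

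Both coreceptors rose as well. Cd4, the coreceptor of helper and regulatory T cells, was at 0.66, 0.528, 1.8, 1.36 and 0.773 CPM in healthy libraries and 54.1, 22.4, 32.6, 18.8 and 56.2 CPM in EAE, a log2 fold change of 5.46 ± 0.48 (SE; adjusted p = 1.61e-06). Cd8a, the alpha chain of the coreceptor of cytotoxic T cells, went from 0.406, 0.203, 0.643, 0.91 and 0.258 CPM to 20.4, 4.41, 32.8, 9.01 and 6.61 CPM, a log2 fold change of 5.20 ± 0.67 (SE; adjusted p = 5.35e-05), and 4.61 without EAE library 3. EAE library 3 held the highest Cd8a value and library 2 the lowest, and the EAE libraries differed more from each other for Cd8a than for Cd4. Cd8b1, the beta chain, went from 0, 0.0406, 1.67, 0.569 and 0.155 CPM to 6.84, 0.946, 7.54, 4.4 and 2.15 CPM, and EAE library 2 lay among the healthy libraries. Its log2 fold change of 3.43 ± 1.11 (SE; adjusted p = 0.031) was no longer called without any one of EAE 1, 3 or 4 or healthy 1, 2, 4 or 5, with adjusted p between 0.0556 and 0.0809, and was 4.92 without healthy 3. Per kilobase of exon, the ratio of Cd4 to Cd8a was 2.4, 4.57, 0.896, 1.88 and 7.67 in EAE NeuN-negative libraries 1 to 5. Library 3 was alone in having more Cd8a than Cd4 on this scale, and the Cd8a values of library 2 rest on 14 counts.

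**Figure D2:**
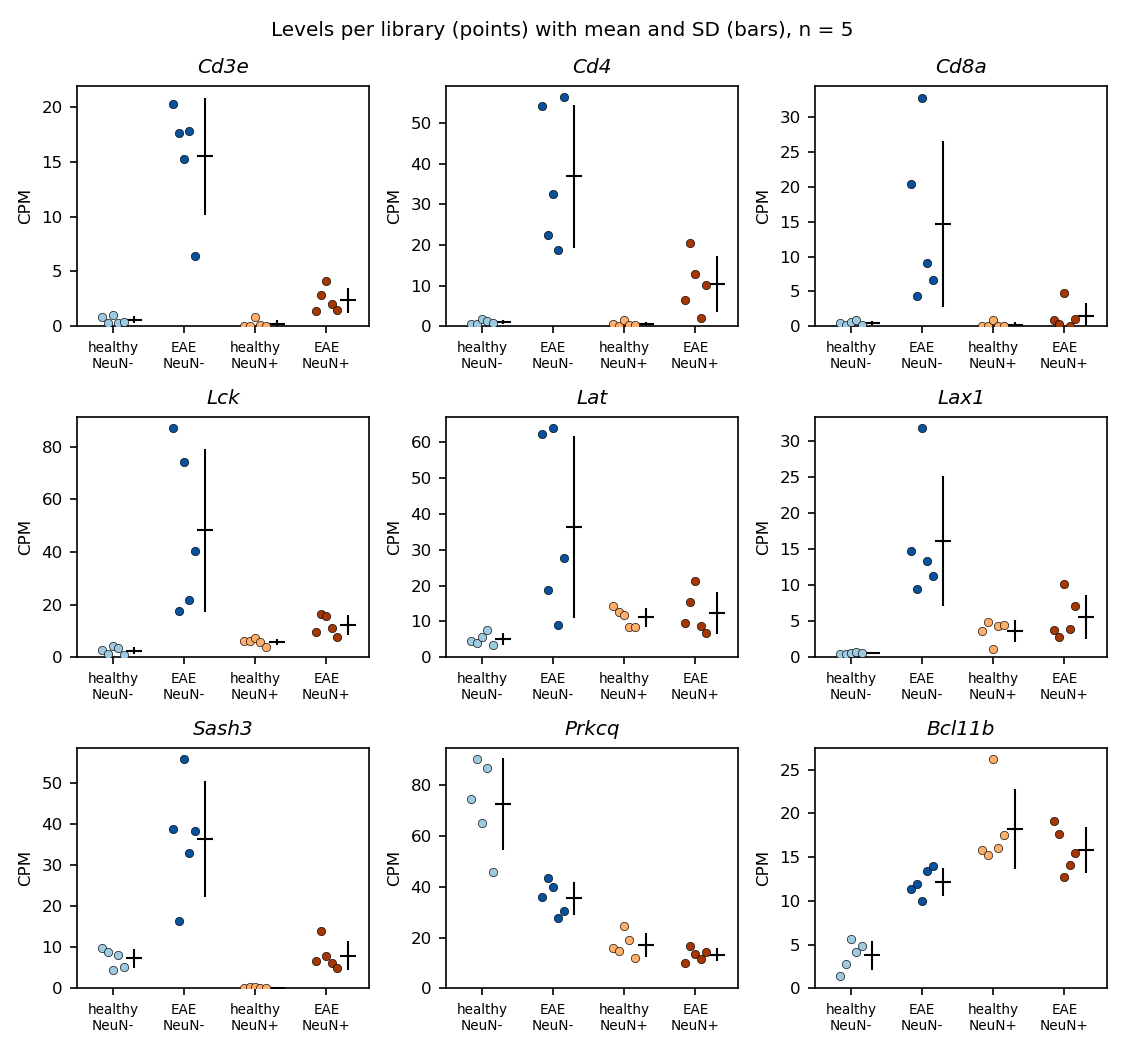
CPM of 9 of the genes in each library (points), with the mean and SD of each group of 5 (bars); each panel has its own linear axis from 0. Cd3e, Cd4 and Cd8a are near 0 in both healthy groups, Lat and Bcl11b are higher in healthy NeuN-positive than in healthy NeuN-negative libraries, and Prkcq is highest in healthy NeuN-negative libraries.

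Of the 8 proximal signalling genes, 7 rose in NeuN-negative nuclei. Lck, the kinase bound to the coreceptors, went from 2.74, 1.34, 4.24, 3.53 and 0.851 CPM to 87, 17.7, 74.1, 21.8 and 40.5 CPM, a log2 fold change of 4.45 ± 0.54 (SE; adjusted p = 2.94e-05). Lax1, a transmembrane adaptor of lymphocytes, went from 0.406, 0.487, 0.643, 0.796 and 0.644 CPM to 14.8, 9.46, 31.8, 13.4 and 11.3 CPM (log2 fold change 5.01 ± 0.49 SE, adjusted p = 3.48e-06). Skap1, an adaptor that links the receptor to integrin adhesion, went from 1.52, 0.893, 4.5, 1.71 and 1.34 CPM to 28.8, 29.3, 17.4, 36.8 and 28.6 CPM (log2 fold change 4.13 ± 0.49 SE, adjusted p = 2.4e-05). EAE library 3 was the highest for Lax1 and the lowest for Skap1, and no EAE library of these genes overlapped the healthy ones.

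Zap70, Lat and Sash3 already had several CPM in healthy nuclei. Zap70, the kinase that binds phosphorylated CD3 chains, went from 3.45, 2.03, 6.3, 5.23 and 2.47 CPM to 32.9, 6.3, 31.6, 9.41 and 11.3 CPM (log2 fold change 2.41 ± 0.50 SE, adjusted p = 0.00257), and EAE library 2 lay only just above the highest healthy library. Lat, the scaffold that ZAP-70 phosphorylates, went from 4.67, 4.1, 5.79, 7.51 and 3.51 CPM to 62.4, 18.9, 64.1, 9.01 and 27.7 CPM (log2 fold change 3.02 ± 0.46 SE, adjusted p = 0.000238). Sash3, an SH3 domain adaptor of lymphocytes, went from 9.91, 8.81, 4.5, 8.08 and 5.15 CPM to 38.6, 16.4, 55.6, 32.8 and 38.1 CPM (log2 fold change 2.55 ± 0.35 SE, adjusted p = 8.4e-05). For Zap70 and Lat, EAE libraries 1 and 3 were far above the other EAE libraries, as they were for Lck. Themis, a regulator of thymocyte selection, went from 0.452 ± 0.348 CPM to 9.08 ± 4.4 CPM (SD, n = 5) and rose too.

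Prkcq, protein kinase C theta, was the exception. It stood at 74.7, 90.6, 65.3, 87 and 45.9 CPM in healthy NeuN-negative libraries, the highest level of any of the 40 genes there, and at 36.1, 43.5, 40, 27.6 and 30.4 CPM in EAE. All 5 EAE libraries lay below all 5 healthy ones, and the log2 difference was -0.78 ± 0.29 (SE; adjusted p = 0.0553), which did not pass the threshold in edgeR. DESeq2's Wald test called it lower (-0.79, adjusted p = 0.0177), as did edgeR without the count filter (adjusted p = 0.048), without the libraries of EAE 2, EAE 4 and healthy 3 (adjusted p = 0.0409), and without any one of EAE 2, healthy 3 or healthy 5. Of 6 oligodendrocyte markers, Opalin, Mog and Mag fell, with log2 fold changes of -3.54, -2.45 and -2.30. The other 3 did not pass, among them Mobp (1.79) and Mbp (1.11), and 1 of the 6, Mobp, was higher at an unadjusted p under 0.05. The summed level of the 6 was 38600 to 68670 CPM in healthy libraries (median 47450) and 30850 to 109500 CPM in EAE (median 63630), so the list as a whole did not move one way. Their part in the Prkcq values was not tested.

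All 7 costimulatory and surface receptors rose in NeuN-negative nuclei. Cd5, a receptor that dampens receptor signalling, was at 0.102, 0.0406, 0.129, 0 and 0.103 CPM in healthy libraries, 8 counts in all, and at 10.2, 5.36, 14.5, 5.4 and 12.3 CPM in EAE (log2 fold change 7.06 ± 0.73 SE, adjusted p = 6.12e-06). Cd6, a related scavenger receptor family member, went from 0.356, 0.609, 1.16, 0.455 and 0.258 CPM to 23.4, 16.1, 23.7, 19.8 and 6.7 CPM (log2 fold change 5.30 ± 0.56 SE, adjusted p = 8.03e-06). Cd28, the main costimulatory receptor of naive T cells, went from 0.203, 0.325, 0.514, 0.455 and 0.387 CPM to 10.2, 23.3, 8.88, 11.6 and 7.81 CPM (log2 fold change 5.37 ± 0.59 SE, adjusted p = 1.11e-05). EAE library 2 was the highest for Cd28 and stood well above the other EAE libraries. Icos, an inducible costimulator, reached 22.2 ± 11.4 CPM and Ctla4, the inhibitory receptor for the same ligands as CD28, 8.76 ± 4.27 CPM (SD, n = 5). Cd2, an adhesion receptor, reached 11.5 ± 5.07 CPM, and Cd27, a member of the tumour necrosis factor receptor family, 8.56 ± 1.2 CPM. The smallest log2 fold change of the 7 was that of Cd27 (3.31 ± 0.64, SE). Without healthy library 3, those of Cd2 and Ctla4 were 6.12 and 6.03 in place of 5.27 and 5.29.

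All 4 cytokine receptor genes rose in NeuN-negative nuclei. Il2rb, the beta chain shared by the interleukin 2 and interleukin 15 receptors, went from 0.406, 0.365, 1.29, 0.91 and 0.412 CPM to 34.5, 20.8, 21.9, 25.8 and 16.2 CPM (log2 fold change 5.50 ± 0.49 SE, adjusted p = 1.88e-06). Il2rg, the common gamma chain, went from 2.34, 1.14, 0, 2.05 and 1.47 CPM to 47.1, 35.9, 74.7, 11.2 and 25.2 CPM (log2 fold change 5.0 ± 0.62 SE, adjusted p = 3.62e-05). It shares 728 exonic bases with Gm20489 on the same strand. Il7r, the interleukin 7 receptor of naive and memory T cells, went from 1.98, 1.58, 0.772, 1.25 and 1.13 CPM to 14.2, 14.5, 27, 8.01 and 7.73 CPM (log2 fold change 3.64 ± 0.48 SE, adjusted p = 6.49e-05). Il2ra, the alpha chain that marks activated and regulatory T cells, went from 0.765 ± 0.639 CPM to 13.6 ± 5.14 CPM (SD, n = 5). EAE library 3 was highest for Il2rg and Il7r but not for Il2rb or Il2ra, for which library 1 was highest.

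Effector molecules were scarce, and only Ifng and Gzmb of the 5 could be tested. Ifng, the cytokine of type 1 helper and cytotoxic T cells, was at 0.0508, 0, 0.129, 0.227 and 0.0258 CPM in healthy libraries, 5 counts in all, and at 6.99, 3.47, 8.43, 1.6 and 3.26 CPM in EAE. It rose by 6.22 ± 1.03 (SE; adjusted p = 0.00044) on the log2 scale, and by 6.81 without healthy library 4. Gzmb, a protease of cytotoxic granules, went from 0.0508, 0, 2.19, 0.227 and 0.0515 CPM to 4.93, 12, 6.03, 4.0 and 1.72 CPM (log2 fold change 3.87 ± 1.21 SE, adjusted p = 0.0262). Healthy library 3 lay above EAE library 5 for Gzmb, and without healthy 3 the log2 fold change was 6.57. The Gzmb call was lost without any one of EAE 2 or healthy 1, 2, 4 or 5, with adjusted p between 0.0512 and 0.0655.

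The helper cytokines Il17a and Csf2 and the pore-forming Prf1 did not pass the count filter in NeuN-negative nuclei. Il17a had no count in the 5 healthy libraries and 17 counts in EAE, at 0, 1.89, 0, 0 and 0.944 CPM, so it was seen in EAE libraries 2 and 5 alone. Taking 3 counts over the healthy group as the floor, it was at least 11-fold higher. Csf2, which encodes GM-CSF, had 4 counts in healthy and 62 in EAE libraries, at 0, 0.122, 0, 0 and 0.0258 CPM in healthy libraries and at 0.809, 1.26, 1.4, 0.60 and 1.63 CPM in EAE libraries, and the groups did not overlap. DESeq2 tested it without this filter and called it higher (5.12 on the log2 scale, adjusted p = 0.000316). Prf1, perforin, had 18 and 73 counts, with EAE libraries 2 and 4 highest, and DESeq2 called it higher (adjusted p = 0.00475). Without a count filter, edgeR called Il17a and Csf2 higher (adjusted p = 0.0301 and 0.0424) but not Prf1 (adjusted p = 0.0903).

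Among the 6 lineage factors, 5 rose in NeuN-negative nuclei. Gata3, the factor of type 2 helper cells that is also made by V2b spinal interneurons, went from 0.711, 0.365, 3.86, 0.682 and 0.619 CPM to 13.7, 17, 9.44, 14.6 and 9.01 CPM (log2 fold change 3.66 ± 0.68 SE, adjusted p = 0.0011), or a log2 fold change of 4.66 without healthy library 3. The other V2b markers, Gata2 and Tal1, were not called (log2 fold changes 0.56 ± 0.51 and 0.75 ± 0.43, SE). Both were called lower in healthy NeuN-positive than in healthy NeuN-negative nuclei, so they did not follow the neuronal sort here. The part of V2b interneurons in the Gata3 values was not tested. Tbx21, which encodes T-bet, the factor of type 1 helper cells, went from 0.203, 0.203, 1.03, 1.59 and 0.232 CPM to 6.76, 5.99, 6.87, 5.2 and 5.75 CPM (log2 fold change 3.52 ± 0.78 SE, adjusted p = 0.00404), or a log2 fold change of 4.11 without healthy 4. Foxp3, the factor of regulatory T cells, went from 1.47, 1.1, 2.7, 1.02 and 0.335 CPM to 4.49, 6.62, 6.87, 11.6 and 5.41 CPM (log2 fold change 2.67 ± 0.67 SE, adjusted p = 0.00855). EAE library 4 was the highest for Foxp3, and none overlapped the healthy group. Foxp3 shares 853 exonic bases with Flicr on the same strand, and exonic overlaps also exist for Cd3e (135 bases with Gm48719), Skap1 (186 with 2010300F17Rik), Ifng (336 with Gm49751) and Lef1 (1208 with Gm43352), so reads there could belong to either gene.

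The remaining lineage factors were present in healthy NeuN-negative nuclei at several CPM. Bcl11b, a factor of T cell commitment that is also made by neurons, went from 1.42, 2.76, 5.66, 4.09 and 4.87 CPM to 11.4, 12, 9.94, 13.4 and 14 CPM (log2 fold change 1.96 ± 0.45 SE, adjusted p = 0.00476). Lef1 went from 11.8, 7.55, 3.86, 8.08 and 10.3 CPM to 19, 26.8, 8.49, 33.8 and 16.9 CPM (log2 fold change 1.65 ± 0.42 SE, adjusted p = 0.00983), with EAE library 3 among the healthy ones. Its call was lost without the libraries of EAE 2, EAE 4 and healthy 3. Tcf7, which encodes TCF-1, the factor of naive and stem-like T cells, was at 9.35, 4.47, 5.27, 5.8 and 7.89 CPM in healthy libraries and at 12.8, 5.99, 13.1, 9.81 and 4.98 CPM in EAE libraries, and the difference of 0.75 ± 0.41 (SE; adjusted p = 0.177) did not pass. Lef1 and Tcf7 are effectors of Wnt signalling outside T cells, and Lef1 marks brain endothelium. Of the other 5 endothelial markers checked, Pecam1 rose (by 1.05 ± 0.34 SE), and Ly6c1, Cldn5, Flt1 and Slco1a4 did not pass (log2 fold changes 0.81, 0.42, 0.10 and -1.02). The summed level of all 6, Lef1 included, was 286.5 to 513.8 CPM in healthy (median 328.9) and 227.6 to 1006 CPM in EAE libraries (median 244.3), where only library 1 (1006 CPM) was above the healthy range. Cldn5 ranged from 101 to 150 CPM in healthy and 56.7 to 477 CPM in EAE libraries, and their part in the Lef1 values was not tested.

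Among the 3 activation and adhesion genes, Spn and Itgal gave the smallest p-values of the whole list in NeuN-negative nuclei. Spn, the sialophorin CD43 of leukocytes, went from 0.559, 0.244, 0, 0.227 and 0.696 CPM to 42.3, 36.9, 33.7, 22 and 21.9 CPM (log2 fold change 6.57 ± 0.52 SE, adjusted p = 1.08e-06). Itgal, the alpha chain of the integrin LFA-1, went from 1.78, 1.54, 3.09, 3.18 and 1.34 CPM to 85.2, 42.9, 101, 38.8 and 51.8 CPM (log2 fold change 5.12 ± 0.41 SE, adjusted p = 1.08e-06). Neither gene is restricted to T cells, since other leukocytes make both. Cd69, an early activation marker, had 2 counts over the healthy libraries, both in library 5, and 406 over the EAE libraries, at 10, 2.84, 7.76, 5.6 and 8.07 CPM. The ratio of these counts, scaled for depth, was 394 (95% interval 108 to 3270, counting error only), and the gene passed the test (adjusted p = 1.44e-05).

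Per kilobase of exon, the levels in EAE NeuN-negative nuclei were led by Lck at 16.5 ± 10.6 CPM per kilobase (SD, n = 5), Il2rg at 16.3 ± 10.1, Sash3 at 13.6 ± 5.25 and Lat at 13.2 ± 9.17. These neighbours did not differ beyond their spread. Itgal at 9.73 ± 4.2, Cd4 at 9.13 ± 4.34 and Cd3d at 7.92 ± 3.51 CPM per kilobase came next, again within each other's spread. In healthy NeuN-negative nuclei, Prkcq at 10.3 ± 2.55 CPM per kilobase stood above Sash3 at 2.72 ± 0.878 and Tcf7 at 2.5 ± 0.765. In healthy NeuN-positive nuclei the order was led by Lat at 4.02 ± 0.954, Zap70 at 3.13 ± 1.52, Prkcq at 2.43 ± 0.677 and Bcl11b at 2.24 ± 0.564 CPM per kilobase, neighbours that did not differ beyond their spread. Cd3e there was at 0.0579 ± 0.0906 CPM per kilobase.

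In NeuN-positive nuclei, fewer of the genes could be tested and fewer rose. Of 28 tested, 16 rose, none fell and 12 did not pass (at an unadjusted p under 0.05, 18 were higher and none lower; DESeq2, run without this filter, called 25 higher and none lower). In this comparison 6.55% of all 16675 genes tested with edgeR rose and 3.68% fell. With DESeq2, 2634 of all 21853 genes tested were higher and 1412 lower. The median log2 fold change of the 28 was 3.02, beside -0.03 for all genes tested. For 12 of the 28 every EAE library lay above every healthy one, as for 5.16% of all genes tested, and for none did every EAE library lie below (4.75% of all genes). The count filter asked for about 0.64 CPM in 5 libraries, which 10 genes reached in every healthy library: Lck, Zap70, Lat, Lax1, Skap1, Prkcq, Gata3, Tcf7, Lef1 and Bcl11b. Of these 10, Lck and Lef1 rose. Without both libraries of EAE 2, EAE 4 and healthy 3, 33 genes of the list were tested and 21 rose. Of all 17315 genes tested in that setting, 1249 rose and 317 fell. Cd247, Cd8a, Cd8b1, Cd2, Cd5 and Cd69 were added and Lef1 was lost.

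**Figure D3:**
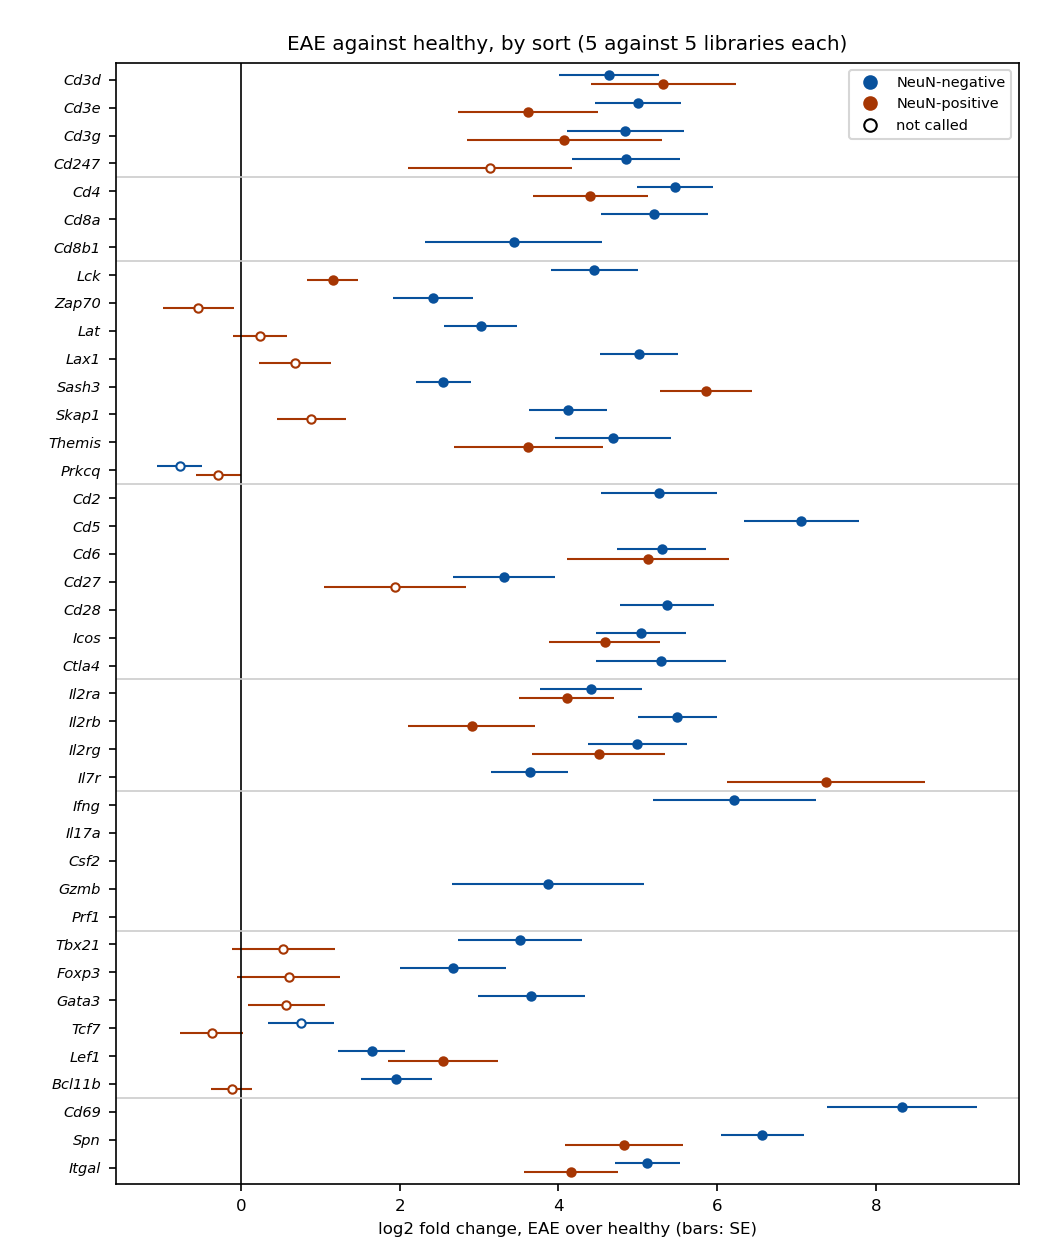
Log2 fold change of each tested gene in EAE against healthy nuclei (x axis), in the NeuN-negative (blue) and NeuN-positive (red) sort; bars are the SE, filled points passed the test and open points did not. In the NeuN-positive sort, Lck, Zap70, Lat, Lax1 and Skap1 lie between -0.54 and 1.15 while the CD3 genes, Sash3 and Il7r lie far to the right.

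Of the receptor complex, Cd3e, Cd3d and Cd3g rose in NeuN-positive nuclei too, and Cd247 did not pass. Cd3e was at 0.0499, 0.0649, 0.894, 0.137 and 0.0351 CPM in healthy libraries and at 1.43, 2.84, 4.13, 2.01 and 1.51 CPM in EAE, without overlap (log2 fold change 3.62 ± 0.88 SE, adjusted p = 0.0204). Its call was lost without healthy 1, 2 or 4, with adjusted p between 0.0598 and 0.0703, and the log2 fold change was 5.11 without healthy 3. Cd3d went from 0.0499, 0.0649, 0, 0.479 and 0 CPM to 4.13, 7.42, 5.27, 2.45 and 2.43 CPM (log2 fold change 5.32 ± 0.92 SE, adjusted p = 0.00204), or a log2 fold change of 6.85 without healthy 4. Cd4 went from 0.449, 0.162, 1.59, 0.342 and 0.281 CPM to 6.56, 20.4, 12.8, 2.16 and 10.1 CPM (log2 fold change 4.40 ± 0.73 SE, adjusted p = 0.00151), or a log2 fold change of 5.17 without healthy 3. EAE library 2 was the highest and EAE library 4 the lowest for Cd4, and the lowest EAE library lay above the highest healthy one for each of Cd3e, Cd3d and Cd4.

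EAE library 4 had no count of Cd3g, Cd247, Cd8a or Cd8b1 among its 8187482 counts. Cd3g was at 0, 0.0649, 1.19, 0.411 and 0.0351 CPM in healthy libraries and at 4.21, 12.8, 4.58, 0 and 2.03 CPM in EAE libraries and just passed (log2 fold change 4.07 ± 1.23 SE, adjusted p = 0.0493). That call was lost without any one of EAE 1, 2 or 5 or healthy 1, 2, 4 or 5 (adjusted p between 0.0719 and 0.123), and the log2 fold change was 3.25 without EAE 2 and 5.44 without healthy 3. Cd247, at 0.449, 0.552, 0.894, 0.0685 and 0.316 CPM in healthy libraries and at 1.64, 12.2, 4.08, 0 and 0.722 CPM in EAE libraries, did not pass (log2 fold change 3.14 ± 1.04 SE, adjusted p = 0.0683), while DESeq2 called it higher (adjusted p = 0.013). Cd8a was too low for the filter, with 12 counts in healthy and 128 in EAE libraries, at 0, 0.0649, 0.894, 0.0685 and 0 CPM in healthy libraries and at 0.927, 0.316, 4.82, 0 and 1.05 CPM in EAE libraries. EAE library 3 held most of the Cd8a counts, 97 of them. Cd8b1 had 8 and 80 counts.

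Sash3, near 0 in healthy NeuN-positive nuclei, rose there in EAE, while Lat, Zap70, Lax1 and Skap1, which had a healthy level, did not pass. Sash3 was at 0.0499, 0.26, 0.199, 0.0685 and 0.105 CPM in healthy libraries and 6.63, 14, 7.81, 6.04 and 5.05 CPM in EAE (log2 fold change 5.86 ± 0.58 SE, adjusted p = 3.27e-05). Lck went from 6.09, 6.07, 7.25, 5.68 and 3.89 CPM to 9.48, 16.6, 15.5, 11.2 and 7.87 CPM, without overlap but by 1.15 ± 0.32 (SE; adjusted p = 0.0359) only, and the call was lost without any one of EAE 1, 2 or 4 or healthy 1, 2, 4 or 5 (adjusted p between 0.0527 and 0.0911). Lat was at 14.2, 12.7, 11.9, 8.35 and 8.42 CPM in healthy libraries and at 9.69, 15.3, 21.3, 8.78 and 6.69 CPM in EAE libraries, and its difference of 0.24 ± 0.34 (SE; adjusted p = 0.678) did not pass. Healthy and EAE libraries of Lat overlapped, as they did for Zap70, Lax1 and Skap1. Zap70 was at 7.59, 7.7, 15.8, 11.8 and 3.89 CPM in healthy libraries and at 3.71, 6.16, 11.7, 5.61 and 3.35 CPM in EAE libraries (log2 fold change -0.54 ± 0.44 SE, adjusted p = 0.443). Lax1 was at 3.7, 4.87, 1.09, 4.31 and 4.42 CPM in healthy libraries and at 3.78, 2.84, 10.2, 3.88 and 7.15 CPM in EAE libraries (log2 fold change 0.68 ± 0.45 SE, adjusted p = 0.339). Skap1 was at 7.89, 8.22, 20.1, 14.2 and 3.82 CPM in healthy libraries and at 15, 30.9, 10.5, 19 and 18.8 CPM in EAE libraries (log2 fold change 0.88 ± 0.44 SE, adjusted p = 0.199). None of Zap70, Lax1 or Skap1 passed, nor did Prkcq (log2 fold change -0.29 ± 0.28 SE, adjusted p = 0.523, from 17.2 ± 4.8 CPM to 13.3 ± 2.57 CPM). Themis rose (log2 fold change 3.62 ± 0.94 SE, adjusted p = 0.027), from 0.146 ± 0.252 CPM to 1.41 ± 0.337 CPM, with the call lost without EAE 1 or 5 or healthy 1, 2, 4 or 5 (adjusted p between 0.0515 and 0.0949). Without healthy 3 its log2 fold change was 5.24.

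Of the costimulatory receptors, Cd6 and Icos rose in NeuN-positive nuclei and Cd27 did not pass. Cd6 went from 0, 0.0325, 0.397, 0.479 and 0 CPM to 2.21, 11.5, 4.38, 5.03 and 2.43 CPM (log2 fold change 5.13 ± 1.02 SE, adjusted p = 0.00608), or a log2 fold change of 6.11 without healthy 4. Icos went from 0.111 ± 0.0923 CPM to 2.74 ± 1.08 CPM (SD, n = 5), a log2 fold change of 4.58 ± 0.70 (SE). Cd27 was at 0.0974 to 1.49 CPM in healthy and 0.285 to 3.63 CPM in EAE libraries (log2 fold change 1.94 ± 0.89 SE, adjusted p = 0.167). The other 4 were below the filter: Cd2 had 5 counts in healthy and 189 in EAE libraries, Cd5 had 28 and 141, Cd28 had 12 and 98, and Ctla4 had 22 and 107. DESeq2 called Cd2, Cd5, Cd28 and Ctla4 higher (adjusted p = 2.51e-06, 0.000531, 0.018 and 0.0352).

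All 4 cytokine receptor genes rose in NeuN-positive nuclei. Il7r went from 0, 0.0325, 0.298, 0.0685 and 0.175 CPM to 1.64, 63.3, 5.47, 7.19 and 2.56 CPM, so that EAE library 2 held most of the signal. Its log2 fold change of 7.37 ± 1.25 (SE; adjusted p = 0.00192) was 5.34 without that library and still passed. Il2rb went from 0.25, 0.195, 1.89, 1.44 and 0.245 CPM to 1.78, 12.8, 6.07, 3.88 and 2.49 CPM (log2 fold change 2.90 ± 0.80 SE, adjusted p = 0.035). The groups overlapped for Il2rb, and its call was lost without EAE 2 or 4 or healthy 1, 2 or 5 (adjusted p between 0.0509 and 0.093), with a log2 fold change of 2.27 without EAE 2 and 3.50 without healthy 3. Il2rg went from 0.25, 0.325, 0.199, 0.753 and 0.21 CPM to 7.63, 14.8, 12.4, 0.432 and 1.77 CPM (log2 fold change 4.50 ± 0.83 SE, adjusted p = 0.00352), with EAE library 4 among the healthy ones. Il2ra rose by 4.10 ± 0.60 (SE), from 0.188 ± 0.0185 CPM to 3.13 ± 1.79 CPM.

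The 5 lineage factors other than Lef1 showed no called difference in NeuN-positive nuclei. Bcl11b was at 15.8, 15.3, 26.2, 16 and 17.5 CPM in healthy and 19.2, 17.7, 12.7, 14.1 and 15.4 CPM in EAE libraries (log2 fold change -0.12 ± 0.26 SE, adjusted p = 0.788). Gata3 was at 2.15, 2.57, 5.07, 3.84 and 2.17 CPM in healthy libraries and at 4.85, 6.47, 2.49, 1.58 and 6.69 CPM in EAE libraries (log2 fold change 0.57 ± 0.48 SE, adjusted p = 0.456). The libraries of the groups overlapped for both genes. Tbx21 was at 1.1, 1.17, 1.89, 0.548 and 0.842 CPM in healthy libraries and at 1.57, 0.789, 3.18, 0.144 and 1.77 CPM in EAE libraries (log2 fold change 0.53 ± 0.65 SE, adjusted p = 0.621). Foxp3 was at 0.699, 0.877, 1.39, 2.4 and 0.526 CPM in healthy libraries and at 0.713, 2.84, 2.44, 0.432 and 1.9 CPM in EAE libraries (log2 fold change 0.60 ± 0.65 SE, adjusted p = 0.569). The intervals of these differences are wide: 1 SE is 0.65 for Tbx21 and 0.65 for Foxp3 on the log2 scale. Tcf7 was at 4.25 ± 1.29 CPM and 3.08 ± 1.12 CPM (log2 fold change -0.37 ± 0.40 SE, adjusted p = 0.559). Lef1 went from 3.15, 1.4, 1.39, 1.51 and 0.807 CPM to 4.21, 27.9, 2.09, 5.75 and 4.26 CPM (log2 fold change 2.54 ± 0.69 SE, adjusted p = 0.0334). EAE library 2 was far above the others for Lef1, and without it the log2 fold change was 1.36 (adjusted p = 0.103). The call was also lost without healthy 2, 4 or 5.

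Spn and Itgal rose in NeuN-positive nuclei. Spn went from 0.0999, 0.195, 0.695, 0.274 and 0.0701 CPM to 3.78, 13.6, 8.7, 2.59 and 3.74 CPM (log2 fold change 4.82 ± 0.74 SE, adjusted p = 0.000903), or a log2 fold change of 5.43 without healthy 3. Itgal went from 0.699, 0.747, 0, 0.753 and 1.02 CPM to 7.98, 15.8, 18.7, 5.32 and 8.59 CPM (log2 fold change 4.16 ± 0.59 SE, adjusted p = 0.000524). For both genes every EAE library lay above every healthy one. None of the 5 effector molecules passed the filter in NeuN-positive nuclei, and Cd69 did not either, with 7 counts in healthy and 94 in EAE libraries. Gzmb had no count in the 5 healthy libraries and 77 in EAE, at 0.927, 0.474, 1.94, 2.45 and 0.328 CPM, which is at least 42.6-fold higher if the healthy group is set to 3 counts in all. Ifng had 7 and 75 counts, at 0.0499, 0, 0.0993, 0.274 and 0.0351 CPM in healthy libraries and at 0.285, 2.21, 2.64, 0 and 0.262 CPM in EAE libraries. Without this filter, DESeq2 called Gzmb, Cd69, Ifng and Cd8b1 higher in EAE NeuN-positive nuclei (adjusted p = 2.34e-06, 0.000396, 0.0221 and 0.0342), and edgeR called Gzmb and Cd69 (adjusted p = 0.00114 and 0.0149) but not Ifng (0.0746) or Cd8b1 (0.0861). Csf2 had 7 and 33 counts, and was in EAE libraries 3 and 5 but no other EAE library. Neither tool called it (DESeq2 adjusted p = 0.348). Prf1 had 20 and 21 counts. Il17a had 3 counts in healthy libraries and 1 in EAE, both at or under the floor, and no fold is given.

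The sorts were then compared within EAE, to ask where the transcripts lay. Of 38 genes tested, none was higher in NeuN-positive nuclei, 28 were lower and 10 did not pass (at an unadjusted p under 0.05, none was higher and 33 lower; DESeq2 called none higher and 32 lower). Of all 17982 genes tested with edgeR, 15.5% were higher in the NeuN-positive sort and 14.8% lower. With DESeq2, 2982 of all 26930 genes tested were higher and 6905 lower. The median log2 difference of the 38 was -2.05, beside -0.16 for all genes tested. For 15 genes every NeuN-positive library lay below every NeuN-negative one, as for 7.15% of all genes tested, and for none above (12.3% of all genes). The count filter asked for about 0.886 CPM in 5 libraries. Of the 38 genes, 37 reached it in every NeuN-negative library, and none did so in every NeuN-positive library alone. Genes scarce in NeuN-positive nuclei thus entered this test through the NeuN-negative libraries.

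The smallest p-values were those of Icos, Itgal, Sash3 and Cd3e. The log2 difference between the sorts was -2.79 ± 0.49 (SE; adjusted p = 0.000511) for Cd3e and -3.10 ± 0.47 (SE; adjusted p = 0.00014) for Icos. It was -2.29 ± 0.37 (SE; adjusted p = 0.000269) for Sash3 and -2.57 ± 0.39 (SE; adjusted p = 0.000162) for Itgal. All NeuN-positive values of these 4 genes lay below all NeuN-negative ones. The difference was -1.90 ± 0.47 (SE; adjusted p = 0.00597) for Cd4, and -3.29 ± 0.83 (SE; adjusted p = 0.00696) for Cd8a, or -4.56 without NeuN-positive library 3. Lck (log2 difference -2.04 ± 0.41 SE, adjusted p = 0.00132), Prkcq (log2 difference -1.53 ± 0.30 SE, adjusted p = 0.00123) and Il2rg (log2 difference -2.46 ± 0.66 SE, adjusted p = 0.00943) were lower too. Bcl11b (log2 difference 0.26 ± 0.33 SE, adjusted p = 0.571) and Il7r (log2 difference 0.02 ± 0.75 SE, adjusted p = 0.987) did not pass, and Il7r was called lower without NeuN-positive library 2. Il17a and Prf1 were not tested. Same-numbered libraries of the sorts varied together, though for EAE 4 a library of another number correlated more. With the number as a block, 34 genes of the list were lower, beside 3196 of all 17982 genes tested. Cd3g, Cd247, Cd2, Skap1, Ifng and Lef1 were added (edgeR, adjusted p = 0.033, 0.0416, 0.0459, 0.0416, 0.0281 and 0.0045). Without NeuN-positive library 1 the count in the list was 18, beside 1788 of all 19295 genes tested (2662 of 17982 in the main fit). Cd5, Ctla4, Zap70, Lat, Lax1, Tbx21, Foxp3, Cd69, Tcf7 and Gzmb were lost there. Without EAE 2 and EAE 4 the count in the list was 35, beside 3768 of all 18111 genes tested.

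**Figure D4:**
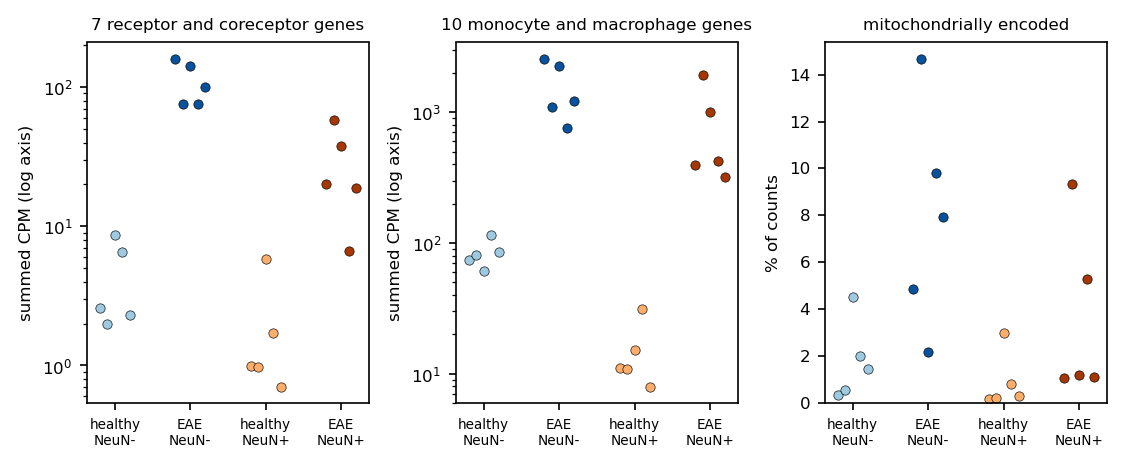
Summed CPM of the 4 receptor and 3 coreceptor genes (left, log axis), summed CPM of 10 monocyte and macrophage markers (middle, log axis) and the share of counts from mitochondrially encoded genes (right, linear axis) in each of the 20 libraries, by group. Each EAE NeuN-positive library lies above all healthy NeuN-positive and below all EAE NeuN-negative ones in the left panel, and EAE library 2 is the highest EAE NeuN-positive library in all 3 panels.

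The summed level of the 7 receptor and coreceptor genes was 2.59, 1.99, 8.62, 6.48 and 2.32 CPM in healthy NeuN-negative libraries 1 to 5 and 159.5, 75.7, 142.8, 75.5 and 100.8 CPM in the EAE ones. In NeuN-positive nuclei it was 0.999, 0.974, 5.86, 1.71 and 0.701 CPM in healthy and 20, 57.6, 37.6, 6.62 and 18.7 CPM in EAE libraries. Healthy library 3 was the highest healthy library in both sorts, and every EAE library lay above every healthy library of its sort. EAE NeuN-positive library 2, with 9.35% mitochondrial counts, was highest, and library 4, with 5.30%, was lowest. In healthy NeuN-negative nuclei, libraries 3 and 4 had both the highest sums and the highest mitochondrial shares (4.51% and 2.03%), and so did healthy NeuN-positive libraries 3 and 4 (3.0% and 0.833%). The part of RNA quality in these sums was not tested.

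In healthy nuclei, the same comparison of sorts split the list. Of 18 genes tested, 6 were higher in NeuN-positive nuclei, 6 were lower and 6 did not pass (the same counts at an unadjusted p under 0.05; DESeq2 called 6 higher and 11 lower). Of all 17134 genes tested with edgeR, 22.8% were higher in the NeuN-positive sort and 23.0% lower, so the share of called genes in the list, 33.3% each way, was not far from the background. With DESeq2, 4494 of all 23521 genes tested were higher and 5125 lower. For 3 genes every NeuN-positive library lay above every NeuN-negative one and for 5 below, beside 16.6% and 17.2% of all genes tested. The other 22 genes, among them all 4 receptor complex genes, were too low to be tested in healthy nuclei.

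The 6 genes that were higher in healthy NeuN-positive nuclei were Lck, Zap70, Lat, Lax1, Skap1 and Bcl11b. The log2 difference was 2.68 ± 0.46 (SE; adjusted p = 0.000411) for Lax1, 2.49 ± 0.57 (SE; adjusted p = 0.00325) for Skap1, 2.31 ± 0.39 (SE; adjusted p = 0.000402) for Bcl11b and 1.16 ± 0.30 (SE; adjusted p = 0.00719) for Lat. Zap70 (log2 difference 1.29 ± 0.46 SE, adjusted p = 0.0355) and Lck (log2 difference 1.23 ± 0.46 SE, adjusted p = 0.0441) were closer to the threshold. The Zap70 call was lost without any one of NeuN-negative 1, 2 or 5 or NeuN-positive 3 or 4 (adjusted p between 0.0744 and 0.0845). The Lck call was lost without any one of NeuN-negative 1, 2 or 5 or NeuN-positive 1, 2, 3 or 4 (adjusted p between 0.0703 and 0.101). Lat, Lax1 and Bcl11b were the genes for which every NeuN-positive library lay above every NeuN-negative one.

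The 6 that were lower were Sash3, Prkcq, Il2rg, Il7r, Lef1 and Itgal. The log2 difference was -5.61 ± 0.48 (SE; adjusted p = 2.32e-06) for Sash3, -2.04 ± 0.26 (SE; adjusted p = 4.89e-05) for Prkcq, -2.29 ± 0.40 (SE; adjusted p = 0.000521) for Lef1 and -3.59 ± 0.73 (SE; adjusted p = 0.00145) for Il7r. The level of Sash3 there, 0.136 ± 0.0897 CPM (SD, n = 5), rested on 15 counts. The Il2rg call (log2 difference -1.96 ± 0.73 SE, adjusted p = 0.0449) was lost without any one of NeuN-negative 1, 2, 4 or 5 or NeuN-positive 1, 2, 3 or 5 (adjusted p between 0.0658 and 0.113). That of Itgal (log2 difference -1.69 ± 0.63 SE, adjusted p = 0.0456) was lost without any one of NeuN-negative 1 to 4 or NeuN-positive 1, 2 or 4 (adjusted p between 0.0576 and 0.0946), and with the replicate number as a block (adjusted p = 0.0532). With that block Gata3 was higher in NeuN-positive nuclei (adjusted p = 0.00416). DESeq2 added Cd3d, Cd2, Icos, Il2ra and Gzmb to the genes called lower in healthy NeuN-positive nuclei.

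The EAE effect itself was compared between the sorts in a model of all 20 libraries. A positive value means that the log2 change in EAE was larger in NeuN-positive than in NeuN-negative nuclei. Of 39 genes tested, 7 had a smaller change in NeuN-positive nuclei, 1 a larger one, and 31 did not pass (at an unadjusted p under 0.05, 3 were larger and 12 smaller; DESeq2 called 2 larger and 9 smaller). Among all 20444 genes tested with edgeR, 1.74% were larger and 0.822% smaller. With DESeq2, 672 of all 22812 genes tested were larger and 960 smaller. The median difference of the 39 was -1.30, beside 0.15 for all genes tested. With DESeq2's size factors in place of TMM, the median of all genes moved by -0.257 and all genes called went from 356 larger and 168 smaller to 236 and 236, while the calls among the 40 genes were kept and Cd5 was added.

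The 7 genes with a smaller EAE effect in NeuN-positive nuclei were 5 proximal signalling genes and 2 lineage factors. The difference was -4.19 ± 0.68 (SE; adjusted p = 0.00399) for Lax1, -3.24 ± 0.62 (SE; adjusted p = 0.00932) for Lck, -3.09 ± 0.62 (SE; adjusted p = 0.0121) for Skap1, -2.70 ± 0.61 (SE; adjusted p = 0.0192) for Lat and -2.87 ± 0.70 (SE; adjusted p = 0.0278) for Zap70. It was -2.95 ± 0.79 (SE; adjusted p = 0.0432) for Gata3 and -1.91 ± 0.48 (SE; adjusted p = 0.0315) for Bcl11b. Sash3 was the 1 gene with a larger effect, by 3.41 ± 0.61 (SE; adjusted p = 0.00648). Lax1, Lck, Skap1 and Sash3 kept their call in all 26 alternative settings, though the Skap1 difference was -3.79 without healthy NeuN-negative library 3. The 7 genes with a smaller effect each had a higher mean in healthy NeuN-positive than in healthy NeuN-negative nuclei: Lax1 3.68 ± 1.51 CPM against 0.595 ± 0.152 CPM, Skap1 10.8 ± 6.35 CPM against 1.99 ± 1.43 CPM and Lat 11.1 ± 2.64 CPM against 5.11 ± 1.58 CPM (SD, n = 5). Sash3 had the reverse, 0.136 ± 0.0897 CPM against 7.29 ± 2.35 CPM. A difference of log2 changes is taken from the healthy level of each sort, so these levels enter it.

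In GRCm38, Lax1 lies at chr1:133679091-133690108, Lck at chr4:129548344-129573641, Skap1 at chr11:96464593-96759130 and Sash3 at chrX:48146436-48161565. Some of these calls depended on single libraries. The Lat difference was lost without healthy NeuN-positive 1 or 2 or healthy NeuN-negative 2 (adjusted p between 0.0516 and 0.0531). Zap70 was lost without any one of 10 of the 20 libraries, Bcl11b of 14 and Gata3 of 18, with adjusted p up to 0.0715, 0.0879 and 0.105. The Gata3 difference was -4.13 without healthy NeuN-negative 3. The count of genes with a smaller effect was 3 without healthy NeuN-positive 1 or 2 or healthy NeuN-negative 2, and 4 without EAE NeuN-positive 1, 4 or 5, healthy NeuN-negative 1 or healthy NeuN-positive 4. Calls over the whole table fell in the same fits. Smaller effects went from 168 of all genes in the main fit to 49, 32 and 21 in the first 3 of these fits. In the others they were at 46 to 76. Without EAE NeuN-negative 3, 2 genes had a larger effect, Sash3 and Il7r, beside 754 of all 21421 genes tested. With the replicate number as a block, Cd5, Il2rb and Tbx21 were added to the smaller effects (adjusted p = 0.0402, 0.0389 and 0.0275). None of the 4 receptor complex genes or 3 coreceptors passed, with differences of 0.78 for Cd3d, -1.15 for Cd3e, -0.67 for Cd3g, -1.63 for Cd247 and -0.92 for Cd4. The SE of these 5 was between 0.80 and 1.38, so differences of that size could not be resolved.

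The background shares above apply to the other lists as well. Further genes of receptor signalling and T cell fate moved in the same direction. Of 47 other signalling genes, 45 were tested in NeuN-negative nuclei, where 30 rose and none fell (edgeR; 35 higher and 1 lower at an unadjusted p under 0.05; median log2 fold change 2.28), and 36 in NeuN-positive nuclei, where 12 rose and none fell (16 higher and 4 lower unadjusted; median 0.62). The constant regions of the receptor chains rose in NeuN-negative nuclei: Trbc1 by 5.45 ± 0.73, Trbc2 by 5.39 ± 0.76 and Trac by 3.24 ± 0.77 (log2, SE). Trbc1 and Trbc2 are near-identical, so the split of reads between them is uncertain. The helper ligand Cd40lg (5.59 ± 1.18) and the phosphatase Ptpn22 (3.42 ± 0.48) rose as well. In NeuN-positive nuclei Trbc2 rose by 2.22 ± 0.52 (SE; adjusted p = 0.0165), and Trac and Trbc1 were too low to test.

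Of 42 other T cell fate genes, 38 were tested in NeuN-negative nuclei, where 25 rose and none fell (29 higher and 0 lower unadjusted; median 2.48), and 30 in NeuN-positive nuclei, where 13 rose and none fell (18 higher and 0 lower unadjusted; median 1.26). Runx1 rose by 3.89 ± 0.30, the chemokine Ccl5 by 6.70 ± 0.61 and the interleukin 18 receptor gene Il18r1 by 5.64 ± 0.57 in NeuN-negative nuclei. In the difference between sorts, Rasgrp1, Ptpn22, Tnfrsf9, Tnfrsf18 and Coro1a of the signalling list had a smaller effect in NeuN-positive nuclei and Sla a larger one, and none of the 38 fate genes passed (edgeR; 1 larger and 3 smaller unadjusted). Many genes of both lists are also made by other leukocytes or by neural cells.

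Markers of other leukocytes rose beside these genes. All 10 monocyte and macrophage markers rose in both sorts, and their summed level was 60.7 to 115.1 CPM in healthy and 754.6 to 2554 CPM in EAE NeuN-negative libraries, and 7.92 to 31.4 and 317.4 to 1923 CPM in NeuN-positive ones. Of 7 neutrophil markers tested in each sort, 6 rose in both. The summed neutrophil level was 85.7 to 136.5 and 114.7 to 494.2 CPM in healthy and EAE NeuN-negative, and 13.1 to 21.9 and 29.4 to 140.3 CPM in NeuN-positive libraries. Of 6 dendritic cell markers tested in NeuN-negative nuclei 4 rose, and of 5 in NeuN-positive nuclei 1 rose. Of 7 B and plasma cell markers tested in NeuN-negative nuclei 5 rose, and none of 3 in NeuN-positive nuclei did (edgeR; 1 higher unadjusted).

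Natural killer cells share Ifng, Gzmb, Prf1, Tbx21, Il2rb, Cd247 and Zap70 with T cells. Of the 10 markers of natural killer and innate lymphoid cells, 5 could be tested in NeuN-negative nuclei, where Fcer1g, Tyrobp and Klrk1 rose, while Klrb1c (log2 fold change 3.14 ± 1.15 SE, adjusted p = 0.0514) and Eomes (log2 fold change 2.52 ± 0.98 SE, adjusted p = 0.0656) did not pass. Fcer1g and Tyrobp are also made by myeloid cells. Ncr1, a marker of these cells, had 20 counts in healthy and 56 in EAE NeuN-negative libraries and was too low to test. The summed level of the 10 was 31.2 to 57.9 CPM in healthy and 159.5 to 383.6 CPM in EAE NeuN-negative, and 2.56 to 9.72 and 55.5 to 174.1 CPM in NeuN-positive libraries, and none of them was at 0 in any group. The part of natural killer, myeloid and B cells in the levels of genes they share with T cells was not tested.

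Microglial markers differed between the sorts in the same direction as Sash3. The summed level of 8 microglial markers was 544 to 672.6 CPM in healthy and 359.1 to 1302 CPM in EAE NeuN-negative, and 22.5 to 41 CPM in healthy and 94.4 to 186.7 CPM in EAE NeuN-positive libraries. Of these, 1 of 8 tested rose in NeuN-negative nuclei and 3 of 7 in NeuN-positive nuclei, and Csf1r and Tmem119, like Sash3, had a larger EAE effect in NeuN-positive nuclei (log2 difference 2.46 ± 0.62 SE, adjusted p = 0.032, for Csf1r, and 2.01 ± 0.48 SE, adjusted p = 0.0272, for Tmem119). Their part in the Sash3 values was not tested. The summed level of 10 neuronal markers was 18720 to 23880 CPM in healthy and 17770 to 26380 CPM in EAE NeuN-positive libraries, against 1100 to 3226 and 819.2 to 2657 CPM in NeuN-negative ones, and 2 of the 10, Slc32a1 and Gad1, fell in NeuN-positive nuclei. Oligodendrocyte markers summed to 3501 to 44160 CPM in healthy and 10580 to 97520 CPM in EAE NeuN-positive libraries, so oligodendrocyte transcripts were measured in the NeuN-positive sort too. The high sums were those of healthy 3 (44160 CPM), EAE 2 (97520 CPM) and EAE 4 (49720 CPM), the numbers set apart by mitochondrial share. The others were at 3501 to 11530 CPM in healthy and 10580 to 12450 CPM in EAE. Whether the T cell transcripts of that sort lay inside neuronal nuclei was not tested. Of 5 astrocyte markers, Fgfr3 alone was called lower in NeuN-negative nuclei (-2.68 ± 0.39 SE). At an unadjusted p under 0.05 in edgeR, 0 were higher there and 3 lower: Fgfr3, Gja1 and Slc1a3. The median log2 fold change of the 5 was -0.77. Their summed level was 517.3 to 1274 CPM in healthy and 191.2 to 530.8 CPM in EAE NeuN-negative libraries. None of the 5 was called in NeuN-positive nuclei (edgeR, with 2 higher and 1 lower unadjusted).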

How the data were processed

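Per the labels, spinal cord nuclei were sorted on NeuN, and RNA was extracted with an RNeasy kit and sequenced from poly(A) TruSeq libraries, 5 per group. The deposited values are raw read counts per gene that the authors made. The submitters' processing notes name STAR 2.4, DESeq2 and the builds GRCm39 and mm10 without their roles. The counter, annotation and strand setting were not given in the sources used here. The 40 genes and the other gene lists were chosen with earlier results of these data known.

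Counts were tested with edgeR 4.0.16 (R 4.3.3): filterByExpr, TMM scaling and robust quasi-likelihood F tests, with p-values adjusted by Benjamini-Hochberg over all genes tested and called under 0.05. Each pairwise comparison used its own 10 libraries, and the difference of effects used all 20. The SE is the absolute log2 fold change divided by the square root of F. Displayed CPM use TMM scaling over all 20 libraries. The edgeR comparisons of EAE with healthy nuclei were tested on simulated counts. They recovered 74% (NeuN-negative) and 80% (NeuN-positive) of genes set to change 4-fold, and 92% and 97% of those set to change 16-fold. Of the unchanged genes, 0.0517% and 0.0607% were called. DESeq2 1.42.0 (Wald test), DESeq2 size factors, other count filters, a replicate block and leaving out libraries were tried as alternatives. Same-numbered libraries of the sorts deviated together from their group means (correlations 0.115 to 0.379 in EAE and 0.28 to 0.7 in healthy). For EAE 4 (0.115 against 0.154) and healthy 2 (0.28 against 0.32), a library of another number correlated more. The main fits did not pair them, and only the replicate block alternative treated them as pairs. The numbers of EAE and healthy libraries did not pair (correlations -0.335 to 0.275). Genes named with the value of every library were up to 3 per role with the smallest p in NeuN-negative nuclei, genes with a different or opposite effect, and genes too low to test. Total counts of 3149209 to 37689267 make 1 count worth 0.0258 to 0.315 CPM. Intervals and floors pool the counts of a group, so they cover counting error only and not the spread between libraries. Reads carry no molecular identifiers. Levels per kilobase divide CPM by the exon length in GENCODE M21. Promoters are from RefSeq.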

Additional observations from a re-analysis of the deposited data

Results flagged for a closer look

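In 9 of 111 sets of 5 libraries of 1 gene and group, 1 library stood far from the other 4 (Dixon's ratio above 0.71). For normally distributed values, chance alone marks about 5% of sets. The ratio was taken on CPM without a log scale, so that rate may not hold here. EAE library 2 did so for Cd28 in NeuN-negative nuclei (23.3 CPM) and, in NeuN-positive nuclei, for Cd28 (7.89 CPM), Il7r (63.3 CPM) and Lef1 (27.9 CPM). EAE library 3 did so for Lax1 in NeuN-negative (31.8 CPM) and Cd8a in NeuN-positive nuclei (4.82 CPM). Healthy library 3 did so for Skap1 (4.5 CPM) and Gata3 (3.86 CPM) in NeuN-negative and for Bcl11b (26.2 CPM) in NeuN-positive nuclei. All of these were high values. EAE library 2 and healthy library 3 are among those with a mitochondrial share above 2% in the NeuN-positive sort. Their NeuN-positive libraries also had the highest oligodendrocyte sums of their groups (97520 and 44160 CPM). The part of RNA quality and of other cell types in these values was not tested.

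For 8 genes the EAE effect differed between the sorts by the test of the difference itself. On the log2 scale, NeuN-positive minus NeuN-negative, it was -4.19 for Lax1, -3.24 for Lck, -3.09 for Skap1, -2.95 for Gata3, -2.87 for Zap70, -2.7 for Lat, -1.91 for Bcl11b and 3.41 for Sash3. For the first 7, the NeuN-positive change was not called except for Lck.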

How the results depend on the processing

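No called result on the 40 genes changed direction under any alternative. The count of genes lower in EAE NeuN-negative nuclei became 1 (Prkcq) with DESeq2's Wald test, with no count filter and without EAE 2, EAE 4 and healthy 3. Those numbers were chosen on the mitochondrial share of their NeuN-positive libraries. The NeuN-negative libraries kept still had 2.18% to 7.94% mitochondrial counts in EAE and 0.367% to 2.03% in healthy. That setting therefore cannot separate EAE from mitochondrial share in NeuN-negative nuclei. The Wald test also gave 25 genes higher in EAE NeuN-positive nuclei, 11 lower in healthy NeuN-positive nuclei and 2 with a larger EAE effect there. Over all genes it called 2634 of 21853 higher, 5125 of 23521 lower and 672 of 22812 larger in these comparisons. Without 1 library at a time, 33 to 36 genes were higher and 0 to 1 lower in EAE NeuN-negative nuclei, and 11 to 21 higher and 0 lower in EAE NeuN-positive nuclei. In EAE, 18 to 31 were lower and 0 higher in NeuN-positive nuclei. In healthy nuclei, 4 to 7 were higher and 4 to 7 lower. For the difference of effects, 1 to 2 were larger and 3 to 8 smaller. Over all genes in these fits, 1796 to 4011 were higher and 1370 to 2806 lower in EAE NeuN-negative nuclei. In EAE NeuN-positive nuclei, 677 to 1721 were higher and 178 to 1462 lower. Between the sorts in EAE, 2202 to 3237 were higher and 1731 to 3482 lower in NeuN-positive nuclei. In healthy nuclei, 3503 to 4354 were higher and 3471 to 4300 lower. For the difference, 63 to 754 were larger and 21 to 353 smaller.

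With the replicate block, 34 genes were lower in EAE NeuN-positive than NeuN-negative nuclei, 7 were higher and 5 lower in healthy NeuN-positive nuclei, and 10 had a smaller EAE effect. More of all genes were called too. Over all genes tested, 3196 of 17982 were lower in EAE, and 5683 higher and 5560 lower of 17134 in healthy nuclei. For the difference, 1992 were larger and 500 smaller of 20444, beside 356 and 168 in the main fit. EAE and healthy libraries share only numbers, and with that block Cd3g (adjusted p = 0.123), Lck (0.0642) and Lef1 (0.089) were not called in NeuN-positive nuclei, while no call changed in NeuN-negative nuclei. With no count filter the median of all genes moved by -0.362 in NeuN-negative and -0.144 in NeuN-positive nuclei in the edgeR fits. That setting lost Cd3g, Lck and Themis in EAE against healthy NeuN-positive nuclei and added 6 genes. Between the sorts in EAE it lost Tbx21, Foxp3, Gata3, Cd69, Tcf7 and Gzmb and added Cd3g and Cd2, leaving 24 lower. In healthy nuclei it lost Il2rg and Itgal and added Icos and Gzmb, and in the difference it lost Gata3 and Bcl11b. The cause of these changes was not tested. Effector genes had few counts in NeuN-positive nuclei and did not pass the count filter there.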
